A study of Mus musculus with 6 samples.

Results

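Probe sets annotated to immunoglobulin gene segments were examined in sorted B cell progenitors from old and young mice. Of the 23410 probe sets with an annotated gene, 25 carried at least 1 symbol of a heavy, kappa or lambda chain segment and form the set described here. They were found by the pattern of their gene symbols, without use of their values, and comprise 4 heavy, 19 kappa and 2 lambda chain probe sets. Probe sets annotated to Ighm alone do not belong to the set. Pro-B and pre-B cells, sorted and studied as a pool of both stages, came from BALB/c mice of 24 months (old, 3 arrays) and 2 months (young, 3 arrays). The mice were of the same inbred strain, the cells received no treatment, and each array was made from 100 ng of RNA, which was amplified. Nothing in the sources used here says whether each mouse replicate was 1 animal or a pool, so p-values measure the spread between these arrays, which may be technical. Levels are given as log2 of the deposited intensity and differences as old minus young on that scale.

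An antibody gene is assembled in the developing B cell from separate V (variable), D (diversity, heavy chain only) and J (joining) segments, which are joined to each other and spliced to a C (constant) region. Pro-B cells rearrange the heavy chain locus, and pre-B cells, which carry a heavy chain paired with the surrogate light chain, go on to rearrange the kappa and then the lambda light chain loci. Unrearranged segments are also transcribed when their locus opens, and rearranged genes are transcribed more strongly, so a probe set in a V segment can read either kind of RNA.

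The set covered a small part of each locus. Its probe sets name 3 of 183 heavy V segments, 19 of 162 kappa V segments and 2 of 3 lambda V segments of the RefSeq table (GRCm38.p6, strain C57BL/6J), which lie on chromosomes 12, 6 and 16. All 24 V symbols were matched to that table, where Ighv1-33 and Igkv4-77 are listed as pseudogenes. One further symbol was of a joining segment (Igkj1), 1 of a constant region (Iglc1) and 1 an older kappa name (Igk-V21). The probe sets are not 25 separate genes. Only 9, all kappa, were annotated to a single gene, whereas 16 were annotated to several, and 15 shared at least 1 database sequence with another probe set of the set. Every heavy chain probe set was annotated to the alpha constant gene Igha as well as to a V segment, and 4 kappa probe sets to the constant gene Igkc. How far each probe set reads V or C sequence, or BALB/c alleles of its segments, was not tested.

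Old replicates 1 and 2 stood apart from the other 4 arrays. The interquartile range over all 23410 probe sets was 1.41 and 1.40 for these, 2.44 for old replicate 3 and 2.76 to 2.98 for the young arrays. As a level of background, the level exceeded by the top 5% of probe sets for olfactory and vomeronasal receptors (1371 probe sets), genes these cells are not known to use, was taken and is called the receptor level. The medians over all probe sets were highest on old replicates 1 and 2, at 5.20 and 5.23. They were 4.98 for old replicate 3 and 4.88 to 4.89 for the young arrays. The receptor level was also highest on old replicates 1 and 2, at 6.30 and 6.39. It was 5.17 for old replicate 3 and 4.60 to 4.84 for the young arrays. This level was exceeded by 14.6% and 13.4% of all probe sets on old replicates 1 and 2. It was exceeded by 45.8% in old replicate 3 and by 51.2% to 55.7% in young arrays. The comparison of the ages is therefore also given without old replicate 3 and without old replicates 1 and 2.

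Most immunoglobulin segment probe sets exceeded the receptor level on the young arrays and on old replicate 3. Most were within background on old replicates 1 and 2. On young replicates 1, 2 and 3 the receptor level was exceeded by 23, 24 and 23 of the 25 probe sets, and on old replicate 3 by 22. Old replicates 1 and 2 had 5 each (20%), where 14.6% and 13.4% of all probe sets exceeded this level. The 4 heavy chain probe sets exceeded it on all 3 young arrays and on old replicate 3, and on neither of the other old arrays. In bulk RNA, fewer cells of a type and less RNA per cell cannot be told apart. Nor can either be told apart here from the shift of old replicates 1 and 2 as whole arrays.

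**Figure D1:**
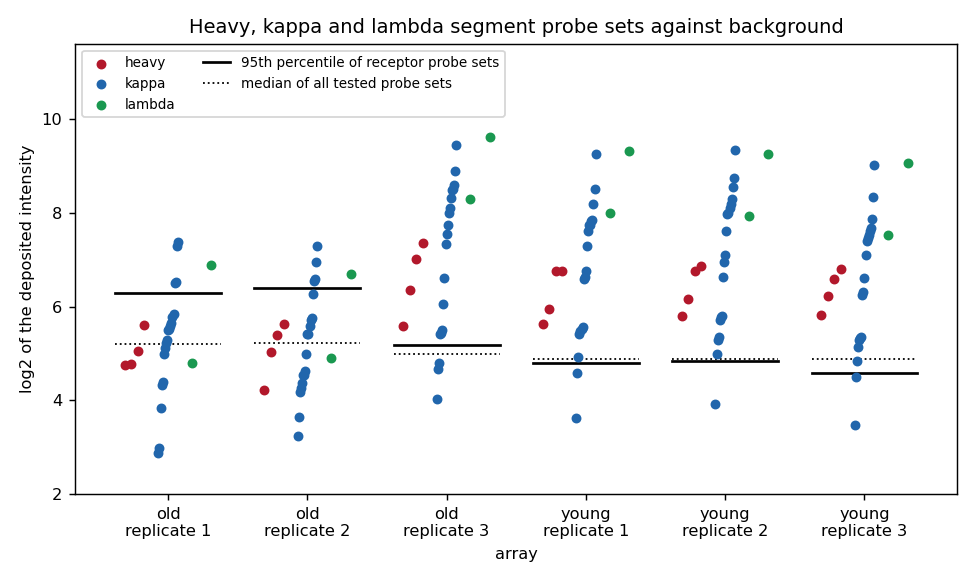
Values of the 4 heavy, 19 kappa and 2 lambda chain probe sets on each array (y axis, log2 of the deposited intensity), 1 point per probe set, with the receptor level as a solid line and the median of all tested probe sets as a dotted line. On old replicates 1 and 2 all but 5 points lie under the solid line, while on old replicate 3 and the young arrays 22 to 24 of the 25 lie over it.

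With all 6 arrays, the old mean was lower for 19 of 25 probe sets, where 38.1% of all probe sets had a lower old mean. This took in 4 of 4 heavy, 13 of 19 kappa and 2 of 2 lambda chain probe sets. With each array centred on its median the count was 22 of 25 and with quantile normalization 17 of 25, scalings that moved the median difference of all probe sets by -0.25 and -0.26. In the values as deposited the median difference was -0.90 for heavy, -0.83 for kappa and -1.65 for lambda chain probe sets, against 0.35 over all probe sets. With quantile normalization these medians were -0.84, -0.23 and -0.96. Among the kappa probe sets the median was 0.16 for the 9 of 1 gene and -0.98 for the 10 of several genes, a contrast that was not tested. The 9 were also dimmer, with medians of 5.34 to 5.78 on the young arrays against 7.49 to 8.05 for the 10. No probe set of the set passed the threshold with limma (0 of 25, where 0% of all probe sets were called), and adjusted p ran from 0.101 to 0.822. An unadjusted p under 0.05 was reached by 4 of 25, against 46.8% of all probe sets. The groups lay apart, with all old values lower, for 2 of 25 (22.9% of all probe sets), and with all old values higher for 0 of 25 (36.1%). Old replicate 3 lay within or above the range of the young arrays for 23 of the 25 probe sets, and below it for the other two.

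**Figure D2:**
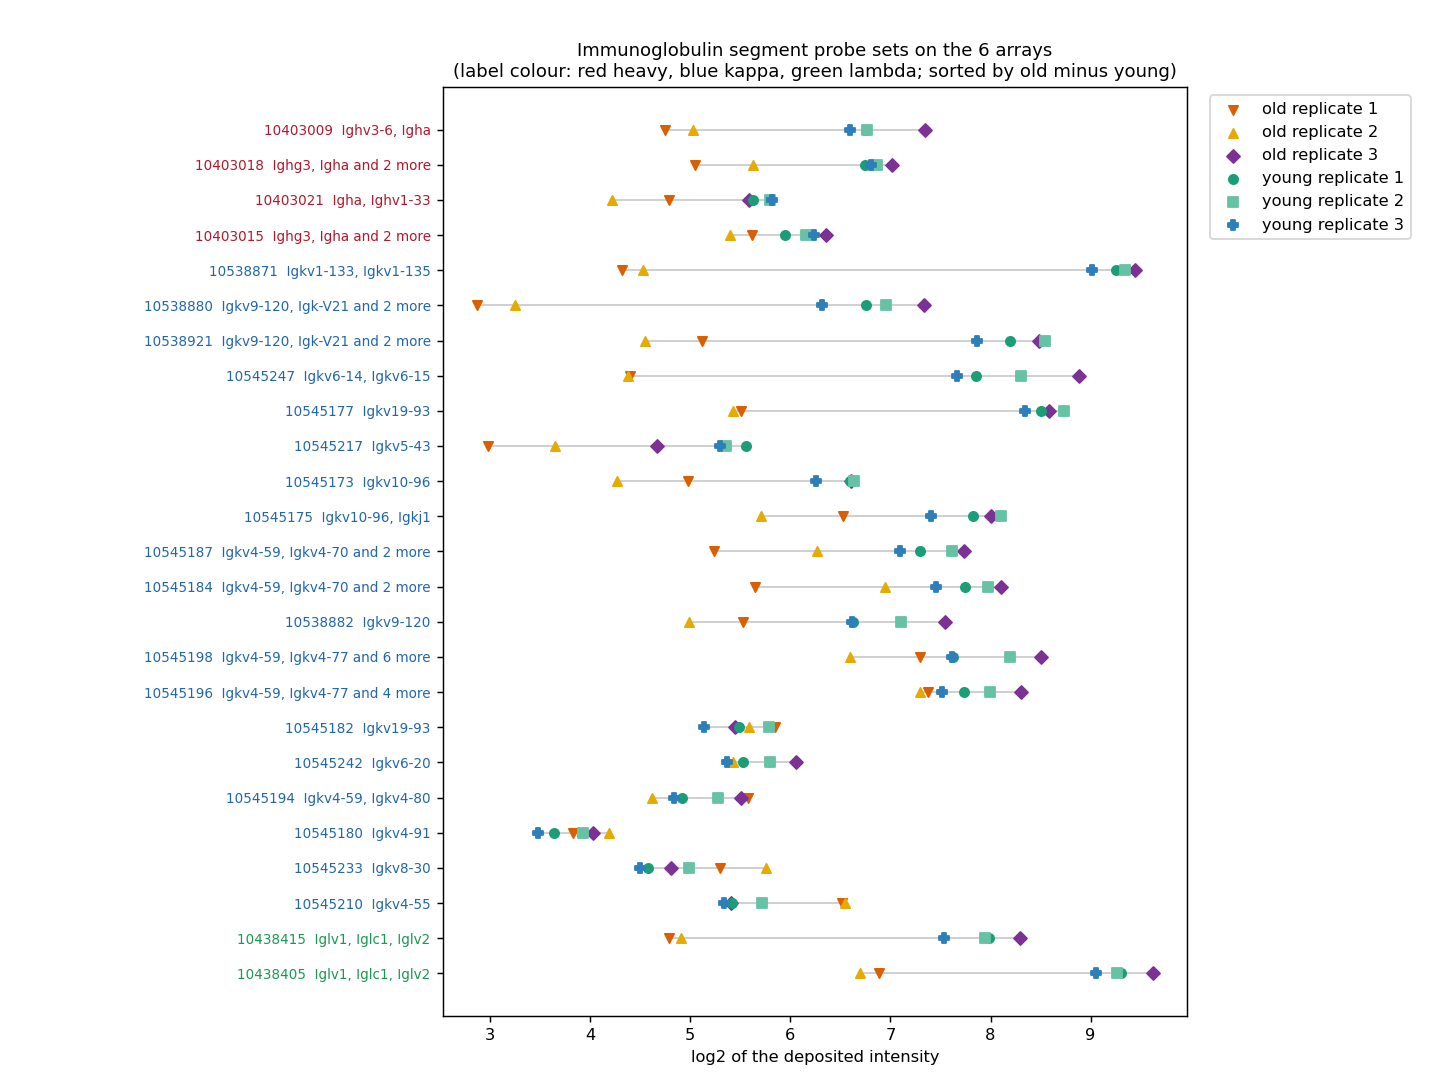
Value of each immunoglobulin segment probe set on the 6 arrays (x axis, log2 of the deposited intensity), 1 line per probe set with its identifier and annotated symbols, in grey from the lowest to the highest value. For most probe sets old replicates 1 and 2 lie at the left, and old replicate 3 lies with or beyond the young arrays at the right.

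The lambda locus of the mouse holds few V segments, and both of its probe sets are annotated to Iglv1, Iglv2 and the constant region Iglc1. Probe set 10438405 gave old values of 6.88, 6.69 and 9.62 and young values of 9.31, 9.26 and 9.05, listed here and below by replicate from 1 to 3. It exceeded the receptor level on every array. The old mean was 7.73 ± 1.64 (SD, n = 3) and the young mean 9.21 ± 0.14 (SD, n = 3), a difference of -1.48 ± 0.75 (SE, adjusted p = 0.143 with limma), which quantile normalization reduced to -0.24 (adjusted p = 0.66). Probe set 10438415 gave old values of 4.79, 4.91 and 8.30 and young values of 7.99, 7.94 and 7.53. Here old replicates 1 and 2 were within background and the difference was -1.82 ± 0.91 (SE, adjusted p = 0.137 with limma). At both, old replicate 3 was the highest of the 6 arrays.

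Heavy chain probe sets fell into a narrow range of levels. Probe set 10403009, annotated to Ighv3-6 and Igha, gave old values of 4.75, 5.03 and 7.35 and young values of 6.75, 6.76 and 6.60. Old replicate 3 lay above all young arrays and the other old arrays below them, which left a difference of -0.996 ± 0.66 (SE, adjusted p = 0.226 with limma). A pair of probe sets with the same annotation (Ighg3, Igha, Ighv1-33 and Ighv1-26) showed the same arrangement. The first of them, 10403018, gave old values of 5.05, 5.62 and 7.02 and young values of 6.75, 6.86 and 6.80. The second, 10403015, stood at 5.62, 5.40 and 6.35 against 5.95, 6.15 and 6.23. The remaining heavy chain probe set, 10403021 (Igha and Ighv1-33), was the exception. Its values of 4.79, 4.22 and 5.59 all lay below the young values of 5.63, 5.79 and 5.82, old replicate 3 by a margin smaller than the spread of the young arrays.

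Kappa V probe sets held the largest differences. Probe set 10538871, annotated to Igkv1-133 and Igkv1-135 at the far end of the locus, gave old values of 4.32, 4.53 and 9.44 and young values of 9.26, 9.34 and 9.02. Its difference of -3.11 ± 1.30 (SE, adjusted p = 0.106 with limma) was the largest of the set. Old replicates 1 and 2 were within background there, and old replicate 3 was the highest of all 6 arrays. At the other end of the locus, probe set 10545247 (Igkv6-14 and Igkv6-15) stood at 4.40, 4.38 and 8.88 on the old arrays. Its young values were 7.86, 8.30 and 7.67. The same split was seen at Igkv19-93 by probe set 10545177, which gave old values of 5.50, 5.43 and 8.58 and young values of 8.51, 8.74 and 8.34.

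A pair of kappa probe sets shares the symbols Igkv9-120, Igk-V21 and Igkv1-117, together with the kinase gene Map3k20. The brighter one, 10538921, gave old values of 5.12, 4.55 and 8.49 and young values of 8.19, 8.55 and 7.87. The dimmer one, 10538880, stood at 2.87, 3.24 and 7.34 against 6.76, 6.96 and 6.32, and their differences were -2.15 ± 0.97 and -2.20 ± 1.12 (SE). Igkv9-120 alone, read by 10538882, stood at 5.53, 4.99 and 7.55 against 6.63, 7.10 and 6.62. Igkv10-96 was read by 10545173, with old values of 4.98, 4.27 and 6.60 and young values of 6.60, 6.64 and 6.26. With the joining segment Igkj1 it was also read by 10545175, at 6.52, 5.71 and 8.001 against 7.82, 8.10 and 7.41, a difference of -1.03 that was -0.23 with quantile normalization. In all of these, old replicates 1 and 2 lay below the lowest young array and old replicate 3 within or above the young range.

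The 4 probe sets of the Igkv4 family that are also annotated to the kappa constant region Igkc lay nearer to the young arrays on at least one of old replicates 1 and 2 than most bright immunoglobulin probe sets did. Probe set 10545196 names Igkv4-59, Igkv4-68, Igkv4-72, Igkv4-77 and Igkv4-80 beside Igkc. It gave old values of 7.37, 7.30 and 8.31 and young values of 7.73, 7.99 and 7.52, a difference of -0.09 ± 0.33 (SE, adjusted p = 0.822 with limma). Probe set 10545198, with a similar annotation, stood at 7.30, 6.59 and 8.50 against 7.62, 8.20 and 7.61. Both exceeded the receptor level on every array. The difference of 10545196 from the young mean was -0.38 and -0.45 on old replicates 1 and 2. Over all 1015 probe sets whose young mean lay between 7.5 and 8, the median on these arrays was -2.29 and -2.07 and the 90th percentile -0.98 and -0.83. With quantile normalization both differences had the opposite sign, at 1.21 for 10545196 and 0.83 for 10545198. The other Igkc-annotated pair differed between these arrays. Probe set 10545184 stood at 5.64 on old replicate 1 and 6.95 on old replicate 2, and 10545187 at 5.23 and 6.27, against young means of 7.72 ± 0.26 and 7.34 ± 0.26 (SD, n = 3).

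At the dimmer kappa probe sets the direction was mixed. The lowest adjusted p of the set was that of Igkv5-43, read by 10545217, which gave old values of 2.98, 3.65 and 4.67 and young values of 5.56, 5.36 and 5.30. All old values lay below all young values, the old arrays being within background, and the difference was -1.64 ± 0.42 (SE, adjusted p = 0.101 with limma). Raising the old values to the receptor level of their arrays turned it to 0.55, so the size and sign of this difference are not bounded. Igkv4-55, read by 10545210, gave 6.51 and 6.55 in old replicates 1 and 2, above its 5.41 in old replicate 3 and its young values of 5.41, 5.72 and 5.34. It exceeded the receptor level on every array. Igkv8-30, read by 10545233, stood at 5.29, 5.76 and 4.80 against 4.58, 4.99 and 4.49, within background on all 3 old arrays. Igkv6-20, Igkv4-91, the pair Igkv4-59 and Igkv4-80 (10545194) and a second probe set of Igkv19-93 (10545182) differed between the group means by 0.16 to 0.33, each less than the sum of the SDs of the 2 groups. With each array centred on its median the difference was negative at 10545182, 10545194 and Igkv6-20 (10545242), and with quantile normalization at Igkv4-91 (10545180). The probe sets of Igkv19-93 thus disagreed, at -2.02 ± 0.82 and 0.16 ± 0.25 (SE). Igkv4-91, at 3.48 to 4.19, was within background on all 6 arrays.

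Without old replicate 3, 18 of the 25 probe sets were called lower on the old arrays, where 30.2% of all probe sets were. Called higher were 2, where 52.2% of all were. At a young mean above 7, 10 of 11 immunoglobulin probe sets were called lower, against 4525 of all 4817 such probe sets. The largest fall was that of 10538871 (Igkv1-133 and Igkv1-135), at -4.78 (adjusted p = 4.94e-06 with limma). The lambda chain probe sets were lower, at -2.42 and -2.97 (adjusted p = 2.46e-05 and 2.33e-05), and all 4 heavy chain probe sets fell. The 2 that rose were Igkv4-55, by 1.04 (adjusted p = 0.00102 with limma), and Igkv8-30, by 0.84 (adjusted p = 0.00964). Igkv8-30 exceeded the receptor level on young replicate 2 only. Over all probe sets with a young mean of 4.5 to 5, like Igkv8-30, the median difference was 0.90 and 0.80 on old replicates 1 and 2. At 5 to 5.5, like Igkv4-55, it was 0.57 and 0.50, with 90th percentiles of 1.40 and 1.31. The calls without old replicate 3 rest on the 2 arrays on which most probe sets of any kind were shifted. In this fit 19285 of the 23410 were called.

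The falls on old replicates 1 and 2 were read against other probe sets of like brightness. Of the 11 immunoglobulin probe sets brighter than 7 in the young mean, 9 were more than 1 lower on old replicate 1, where 89.1% of all 4817 such probe sets were, and 9 on old replicate 2, where 84.3% were. The median difference of the 11 from the young mean was -2.33 on old replicate 1 and -2.52 on old replicate 2, against -2.54 and -2.22 over the 4817. The falls were therefore about as frequent and as large as those of other bright probe sets. The exceptions were all annotated to Igkc: 10545196 on both arrays, 10545198 on old replicate 1 and 10545184 on old replicate 2. With old replicate 3 included, the groups lay apart with old lower for 0 of the 11, against 65.7% of the 4817.

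**Figure D3:**
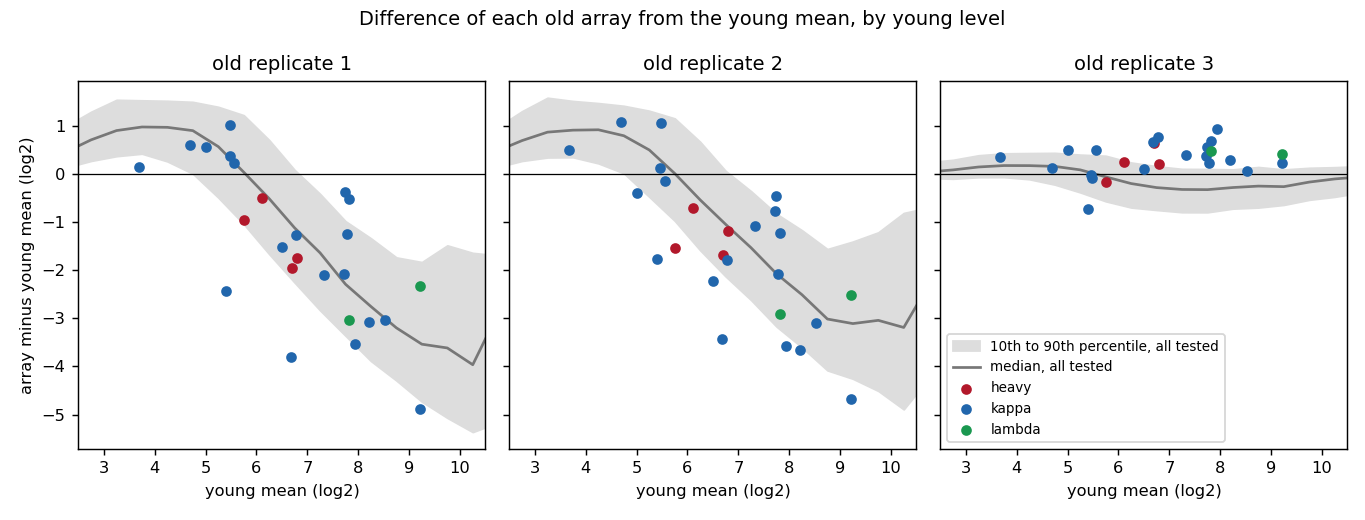
Difference of each old array from the young mean (y axis, log2) against the young mean (x axis, log2 of the deposited intensity) for the 25 immunoglobulin probe sets, with the median (line) and 10th to 90th percentiles (band) of all tested probe sets in bins of young mean. On old replicates 1 and 2 most points follow the falling band, and on old replicate 3 nearly all points with a young mean above 7 lie over the median line.

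On old replicate 3, immunoglobulin segment RNA was level with or above the young arrays at all but 2 probe sets. This array lay above all 3 young arrays for 16 of the 25 probe sets, where 41.7% of all probe sets did. It lay below all 3 for 2, where 31.8% did. It also lay above all 3 for 75% of 52 T cell receptor segment probe sets. Of the 1371 receptor probe sets taken as background, it did so for 57.8%. The 16 were 3 of 4 heavy, 11 of 19 kappa and 2 of 2 lambda chain probe sets. Among those with a young mean above 7 it was 8 of 11, against 15.4% of all 4817. The median difference of old replicate 3 from the young mean was 0.23 for heavy, 0.34 for kappa and 0.44 for lambda chain probe sets, and 0.05 over all probe sets. Over the 11 bright probe sets of the immunoglobulin segments it was 0.40, and over all 4817 it was -0.24. Centring each array on its median left the 16 at 16, where 27.2% of all probe sets then lay above all 3 young arrays.

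Fitted alone against the young arrays, with the lone array assumed to vary like the young ones, old replicate 3 differed at 2 of the 25 probe sets. Probe set 10403009 (Ighv3-6 and Igha) was higher by 0.65 ± 0.13 (SE, adjusted p = 0.0368 with limma), where 1.76% of all probe sets were called higher. Igkv5-43 was lower, at -0.74 ± 0.15 (SE, adjusted p = 0.0326 with limma), where 5.24% of all were called lower. The largest kappa difference, 0.94 ± 0.23 (SE) at 10545247 (Igkv6-14 and Igkv6-15), had an adjusted p of 0.0535. For the other 22 probe sets adjusted p was higher than this. The 4.67 of Igkv5-43 on old replicate 3 was within background, as the receptor level of that array was 5.17. A single old array carries this comparison, so it says nothing of the spread among old mice.

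The kappa probe sets also moved together across the young arrays. Young replicate 3 was the lowest of the 3 for 19 of 19 kappa and 2 of 2 lambda chain probe sets, but for 1 of 4 heavy chain probe sets. That made 22 of 25, where 37.8% of all probe sets were lowest on young replicate 3. At a young mean above 7 it was 11 of 11, where 23.0% were. T cell receptor segment probe sets were also lowest there for 36 of 52. Their median difference from the mean of the other young arrays was -0.12. Young replicate 2 was the highest of the 3 for 20 of 25 (33.0% of all), of which 18 were kappa, and for 9 of 11 bright ones (23.1%). The differences were small: the median kappa value on young replicate 3 was 0.30 below the mean of the other two young arrays. Kappa probe sets share annotation and a locus, so these counts are not of independent genes. Old replicate 3 was highest and young replicate 3 lowest of these 4 arrays for 11 of the 19 kappa probe sets, and for 14 of the 25, where 21.1% of all probe sets had this order.

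Genes of other stages differed across the same 4 arrays. Dntt, which adds nucleotides at segment joints and marks pro-B cells, gave 8.18, 6.69, 6.59 and 5.13 for young replicates 3, 1 and 2 and old replicate 3, in this order. Igll1, a chain of the surrogate light chain, stood at 9.54, 9.11, 8.77 and 7.86 in the same order. Cd74, the invariant chain of antigen presentation, which mature B cells hold at high levels, ran the other way at 7.28, 7.62, 7.74 and 8.43. With old replicate 3 alone against the young arrays, Igll1 was lower, at -1.28 ± 0.26 (SE, adjusted p = 0.0346 with limma), and Cd74 higher, by 0.88 ± 0.19 (SE, adjusted p = 0.0397). Dntt, at -2.02 ± 0.54 (SE), had an adjusted p of 0.0665. The 5.13 of Dntt on old replicate 3 was within background, as the receptor level of that array was 5.17. Over whole lists the picture was less uniform. Young replicate 3 was highest and old replicate 3 lowest for 3 of 11 pro-B and pre-B genes (Igll1, Dntt and Rag2). This order also held for 7 of 11 rearrangement genes, a list that shares Dntt and Rag2. Its share over all probe sets was not counted. The reverse order held for 2 of 8 mature B genes (Cd74 and Ciita), where 21.1% of all probe sets had it. Among the young arrays, young replicate 3 was the lowest for 6 and the highest for 4 of the 11 pro-B and pre-B genes, so Dntt and Igll1 do not stand for the list. It was the lowest young array for 7 of 8 mature B genes, against 37.8% of all probe sets and 23.0% of the 4817 bright ones. It was the highest for 8 of 8 neutrophil genes, against 36.5% of all and 55.8% of the 4817. The part of these differences in the immunoglobulin values was not tested.

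**Figure D4:**
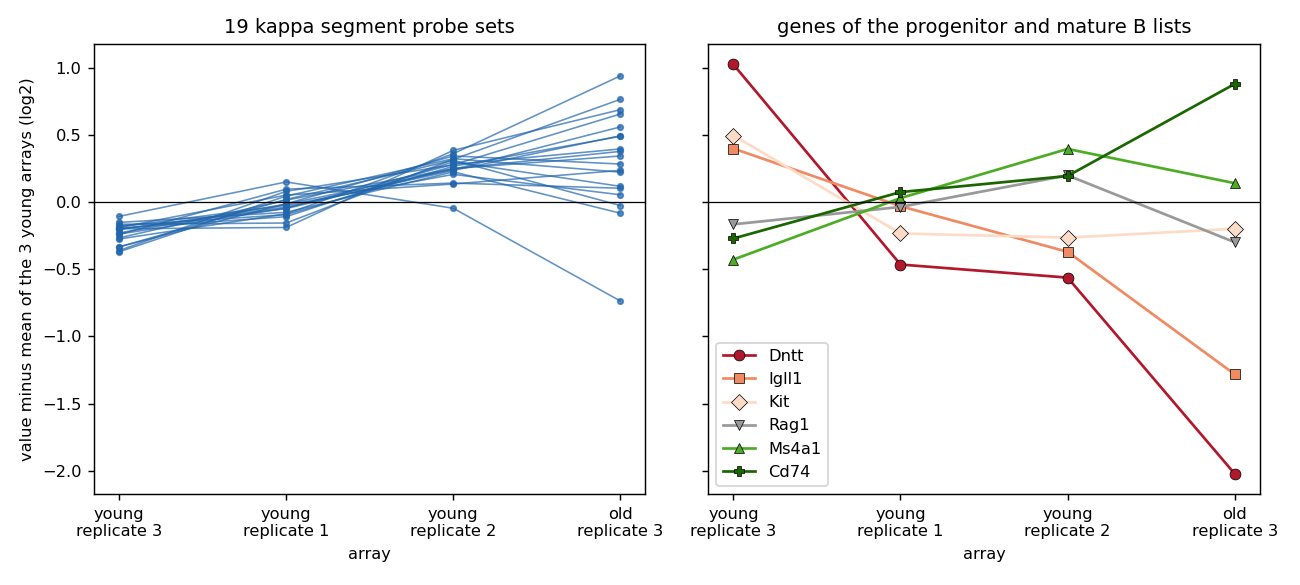
Value minus the mean of the 3 young arrays (y axis, log2) on young replicates 3, 1 and 2 and old replicate 3 (x axis, an order chosen after the values were seen) for the 19 kappa probe sets (left) and 6 genes of the progenitor and mature B lists (right). Young replicate 3 is the lowest young array on every kappa line, while Dntt and Igll1 are highest there and lowest on old replicate 3.

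Kappa V segments lie in order along chromosome 6, and segments far from the J segments are brought near them by looping of the locus before they can be joined. The rank of each kappa probe set was taken from the RefSeq order of its V segments, counted from the J segments. Old minus young ran lower with distance, with a Spearman rho of -0.46 across the 19 probe sets. The 8 nearer than rank 83 had a median difference of -0.32 and the 9 farther a median of -1.21, with the remaining 2 at that rank. For old replicate 3 alone against the young mean, rho was -0.01 and the medians were 0.39 and 0.24. These are descriptions: the probe sets share arrays, sequences and, in part, annotation, and the far probe sets include the brightest.

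**Figure D5:**
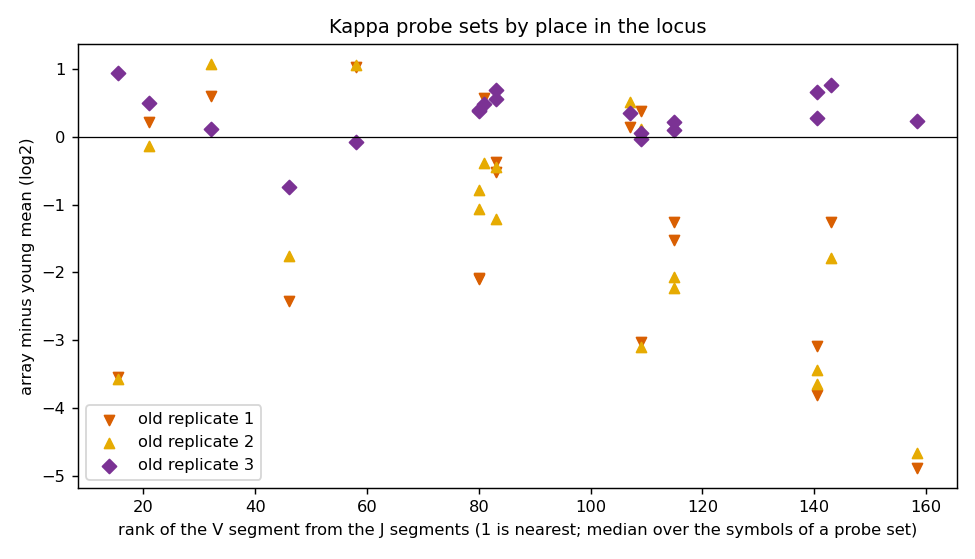
Difference of each old array from the young mean (y axis, log2) for the 19 kappa probe sets by the rank of their V segments from the J segments (x axis, 1 is nearest; the median rank where a probe set names several). Old replicates 1 and 2 spread from over 1 above to nearly 5 below the young mean, and old replicate 3 stays within 1 of it.

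Constant regions and the partners of the antibody chains were measured by other probe sets. Ighm, the mu constant gene of the first heavy chain to be made, had 3 probe sets. The brightest (10402991) gave old values of 7.11, 7.86 and 8.59 and young values of 8.04, 8.28 and 8.02. Its difference of -0.26 ± 0.38 (SE, adjusted p = 0.56 with limma) came with old replicate 3 highest of all 6 arrays. Another (10402864) stood at 5.95, 5.95 and 6.80 against 6.49, 6.52 and 6.36, within background on old replicates 1 and 2. The last (10403069) was within background on all 6 arrays. Igha alone (10403034) stood at 6.60, 7.69 and 7.69 against 7.60, 7.72 and 7.58, with old replicate 1 alone below the young range. A second probe set of Igha alone (10403063) stood at 6.74, 7.17 and 7.43 against 7.38, 7.52 and 7.39, with old replicates 1 and 2 both below it. Of the signaling partners, Cd79b gave old values of 6.65, 6.79 and 10.48 and young values of 10.68, 10.76 and 10.46. Vpreb1, the other chain of the surrogate light chain, stood at 11.13, 11.69 and 10.82 against 11.15, 10.76 and 11.07, so that old replicates 1 and 2 lay within or above the young range.

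The recombinase and the repair and joining proteins of rearrangement were lower in old means for 10 of 11 measured genes, with a median difference of -1.81. The old mean was lower for 38.1% of all probe sets. Of the 4817 with a young mean above 7, it was lower for 4697, with a median difference of -1.69 over the 4817. None of the 11 was called with limma in the comparison of 3 with 3 arrays. An unadjusted p under 0.05 was reached by 9 of 11, against 46.8% of all probe sets and 3542 of the 4817. Without old replicate 3, 10 of 11 were called lower (30.2% of all probe sets, and 4525 of the 4817). Old replicate 3 lay below all young arrays for 8 of the 11. Rag1, a subunit of the recombinase, gave 9.29 in old replicate 3 and young values of 9.56, 9.79 and 9.43. Of all probe sets 31.8%, and of the 4817 bright ones 3234, also lay below all young arrays there.

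Markers of other cells that carry immunoglobulin RNA were read beside these values. Of 9 measured plasma cell genes, none exceeded the receptor level on old replicates 1 and 2, and 7 did on each of the other 4 arrays. Prdm1 (3.87 to 4.69) and Tnfrsf17 (3.60 to 4.39) were within background on all 6 arrays, with all old values higher. The old mean was lower for 6 of the 9 and higher for 3. Brightest on the young arrays were Slamf7, Mzb1 and Irf4, with young means of 8.68, 8.15 and 8.05. The summed level of the 9 (log2 of the sum of intensities) was 8.46, 8.34 and 10.08 on the old arrays. On the young arrays it was 10.27, 10.26 and 10.37. Jchain, which links secreted antibody, stood at 4.86, 5.57 and 5.87 against 5.46, 5.03 and 5.17. The 8 mature B genes summed to 8.53, 8.58 and 10.61 on the old and 10.45, 10.64 and 10.09 on the young arrays. Young replicate 3, the lowest young array for the kappa probe sets, was also the lowest of the young in this sum. All 8 mature B genes exceeded the receptor level on old replicate 3 and on the young arrays, and 1 did on each of old replicates 1 and 2. The 8 neutrophil genes, which the sort should leave out, summed to 10.98, 12.22 and 12.99 in old replicates and 12.96, 12.90 and 13.25 in young ones, and all 8 exceeded the receptor level on old replicate 3 and each young array. The part of plasma, mature B or neutrophil cells in the segment values was not tested.

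T cell receptor segments, which the same recombinase joins in T cells, were also read. Their 52 probe sets had a median difference of 1.01, with no lower old mean, and the groups lay apart with old higher for 39 of 52, where 36.1% of all probe sets did. Of the 1371 receptor probe sets taken as background the groups lay apart in this way for 781, with a median difference of 0.72. Old replicates 1 and 2 were above all young arrays for 51 and 52 of the 52 (60.0% and 59.5% of all probe sets), and for 1331 and 1340 of the 1371 receptor probe sets, a like share. The immunoglobulin probe sets went with the old means lower, and those of T cell receptors with the old means higher. The difference between these sets was not tested.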

How the data were processed

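Sorted pro-B and pre-B cells were measured on 6 arrays, 3 per age. The authors deposited a linear intensity for each probe set; the submitters' processing notes name RMA, with no version given in the sources used here. The array number limits the precision. Log2 was taken of each value. Names come from the platform annotation, in which 23410 of 28940 probe sets have a gene. Old and young were compared with limma 3.58.1 in R 4.3.3, with age as the single factor, a 2-sided moderated test, Benjamini-Hochberg adjustment over the 23410 and a threshold of adjusted p under 0.05.

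Members are all probe sets with a symbol of an immunoglobulin heavy, kappa or lambda segment, and every one of the 25 was described. Members and gene lists were chosen with earlier results of these data known. The lists are described by counts and medians only. The background level is the 95th percentile of 1371 olfactory and vomeronasal receptor probe sets. A young mean above 7 served for comparison at like brightness.

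The titles give both groups replicate numbers 1 to 3. Deviations of same-numbered arrays correlated at 0.157, 0.15 and 0.279, so a fit with the number as a block was run, although old replicate 1 correlated at 0.153 with young replicate 2. Alternatives were this block, other normalizations, filters, array weights and leaving out arrays. The code was tested on simulated data.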

Additional observations from a re-analysis of the deposited data

How the results depend on the processing

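No probe set was called with limma over all 23410 or over the 25, and this count of 0 held with the replicate block, with all probe sets tested, without dim probe sets, with median centring, quantile normalization, trended robust moderation and adjusted p under 0.1. The block changed no call. Array weights gave 19998 calls in all and 22 of the 25 (19 lower, 3 higher), with a weight of 0.0447 for old replicate 3. Leaving out 1 array gave 0 to 19285 in all and 0 to 20 of the 25, the highest without old replicate 3. Without old replicates 1 and 2 there were 1638 in all and 2 of the 25. Median differences ranged from -1.36 to -0.50 (heavy), -1.53 to -0.34 (kappa) and -2.70 to -1.12 (lambda) when 1 array was left out. Without old replicates 1 and 2 they were 0.23, 0.34 and 0.44. With all arrays, kappa probe sets of 1 gene had a median of 0.16. Signs turned for 19 probe sets without old replicates 1 and 2. The new values were 0.65 (10403009), 0.24 (10403015), 0.21 (10403018), 0.42 (10438405), 0.47 (10438415), 0.24 (10538871), 0.66 (10538880), 0.77 (10538882), 0.28 (10538921), 0.10 (10545173), 0.22 (10545175), 0.055 (10545177), -0.025 (10545182), 0.38 (10545184), 0.40 (10545187), 0.56 (10545196), 0.69 (10545198), -0.082 (10545210) and 0.94 (10545247). Quantile normalization turned 10545180 (-0.22), 10545184 (0.0019), 10545196 (1.21) and 10545198 (0.83). Median centring turned 10545182 (-0.10), 10545194 (-0.032) and 10545242 (-0.061), and array weights 10545194 (-0.31) and 10545242 (-0.13). Leaving out 1 array turned the sign of 10545182 (range -0.0086 to 0.31), 10545196 (-0.41 to 0.093) and 10545198 (-0.87 to 0.088). The cause was not tested. Raising old values to the receptor level turned 10545217 to 0.55 and gave 1.27 for 10545233, so neither difference is bounded. Where old values are within background, the size of a difference is set by that background.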
